A study of Verbena bonariensis with 6 samples.

Results

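SHORT-ROOT, SCARECROW and most of the numbered SCARECROW-like (SCL) proteins are plant regulators of the GRAS family, and their transcripts were followed here in roots of Verbena bonariensis under cadmium. The family's clusters were taken from the families that the authors assigned. Clusters named after the chitin-inducible gibberellin-responsive proteins, PAT1, the DELLA proteins and SCL1, SCL5, SCL13 and SCL21 in Swiss-Prot were left out. This left 79 of 156 GRAS clusters, of 8147 clusters of transcriptional regulators in all. A cluster is the deposited unit of expression, with 1 value per library. The 79 clusters had 20 Swiss-Prot hits with 18 names, and their best hits in the NR protein database were 36 proteins, so several clusters often shared a best hit. Clusters with the same best NR hit are called 1 protein below. Whether they come from 1 Verbena gene or from several related genes was not tested.

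The cadmium group was given cadmium, a metal toxic to plants, at 100 mg/kg of soil and harvested 20 days later. The control group had no cadmium solution added. Plants of both groups were of the strain Finesse and 2 months old, and each group held 3 root libraries that the labels call biological replicates. The sources used here do not say whether a library holds 1 plant or pooled plants.

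GRAS proteins take their name from GAI, RGA and SCARECROW and share a C-terminal domain that binds other proteins. In roots of Arabidopsis, SHORT-ROOT is made in the stele and moves outward into the neighbouring cell layer. There it acts with SCARECROW and with zinc fingers of the BIRD group to specify the endodermis, the layer that controls entry of solutes into the stele, and to maintain the stem cell niche. Other branches of the family act in gibberellin response (SCL3), in meristem maintenance (the HAIRY MERISTEM or HAM type, SCL6, SCL15 and SCL27), and with TGA factors in the response to foreign chemicals (SCL14, of the LISCL type named after a lily protein).

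Counts of the regulators summed to between 1092183 and 1228042 per cadmium library and to between 1207479 and 1340255 per control library. Whole-library totals recovered from counts, FPKM and lengths were 20390656 to 23343050 in the cadmium libraries and 18619728 to 20558908 in the control libraries, so the regulators took 5.23% to 5.53% of all reads under cadmium, against 6.45% to 6.52% in the control libraries. CPM values below are counts of a cluster scaled to a common total of regulator counts per library after TMM scaling. Scaling to whole libraries instead moved the log2 fold change of all clusters by a median of -0.35. Of 41 clusters on a list of root regulators (PLT1, PLT2, WOX5, SOMBRERO and others, SHORT-ROOT and SCARECROW included), 37 were above 0, and they summed to 85.5 to 127.9 FPKM in the cadmium libraries and to 92.5 to 99.7 FPKM in the control libraries. Of 28 clusters on a list of shoot and leaf regulators (GLK1, GLK2 and YABBY 2), 20 were above 0, and they summed to 50.9 to 54.9 FPKM in the cadmium libraries and to 86.9 to 96.6 FPKM in the control libraries. No cluster analysed here carried the names MYB36, ROOT HAIR DEFECTIVE 6, LEAFY, APETALA 1 or SHOOT MERISTEMLESS, which were on the lists too. None of the matched names was at 0 throughout, and their part in the results was not tested. In whole roots, fewer cells of a type and less RNA per cell cannot be told apart.

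Summed over all 79 clusters, the GRAS proteins stood at 438.9 ± 36.0 FPKM (SD, n = 3) under cadmium, against 828.8 ± 25.9 FPKM (n = 3) in control roots. FPKM is scaled by the authors to length and to the whole library. The groups did not overlap, with 411.1 to 479.6 FPKM in the cadmium libraries and 803.6 to 855.4 FPKM in the control libraries. The 6 clusters with the best NR hit SCL30 held 26.2% ± 1.4 of this sum under cadmium and 47.9% ± 1.2 in control roots (n = 3 each). Without these 6 clusters the sums were 323.9 ± 23.7 FPKM under cadmium and 431.9 ± 16.7 FPKM in control roots. In CPM within the regulators they were 12719 ± 875 under cadmium and 12276 ± 343 in control roots. The sum over all 8147 clusters of regulators was lower in FPKM too, at 49746 ± 1659 under cadmium and 63618 ± 214 in control roots. The 77 GRAS clusters left out summed to 819.6 ± 47.7 FPKM under cadmium and to 2959 ± 22 FPKM in control roots. These differences between sets were not tested.

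Of the 79 clusters, 60 had counts high enough to test, 17 had lower or sporadic counts, and 2 were at 0 in every library. At an adjusted p below 0.05 (quasi-likelihood test of edgeR, adjusted by the Benjamini-Hochberg or BH method over all 4844 clusters tested), 21 of the 60 changed, or 35%, with 8 higher and 13 lower under cadmium. The 8 higher include 3 clusters named EMB8, and the 13 lower include 1 without a Swiss-Prot hit, names outside this set that are described below. Among all clusters tested 30.5% passed, 15.8% higher and 14.6% lower. Scaled to whole libraries, 26 passed (33.8% of all clusters), and the split was 4 higher and 22 lower, where 10.9% of all clusters were higher and 22.9% lower. Changes of at least 2-fold were called in 13 of the 60 clusters, 6 higher and 7 lower, against 21.3% of all clusters. The groups did not overlap in 34 of the 60 clusters, or 56.7%, and in 53.5% of all clusters tested. By another test on the same libraries, DESeq2 called 31 of 59 tested clusters (52.5%, against 43.3% of all clusters tested). With limma 30 of 60 passed on log2(FPKM + 1) (50.0%, against 44.4%) and 29 of 60 on log2(FPKM + 0.1) (48.3%, against 42.1%). A fit without a filter called 14 of 77 (18.2%, against 16.2%). The median log2 fold change was -0.17, against -0.08 over all clusters. In these fits the share of GRAS clusters that passed lay above that of all clusters, while in 5 of the 6 fits without 1 library it lay below, and the difference was not tested. The 77 GRAS clusters left out had 3 higher and 19 lower of 65 tested, with a median of -0.34 (0 higher and 25 lower with whole-library totals), and the difference between these sets was not tested.

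**Figure D1:**
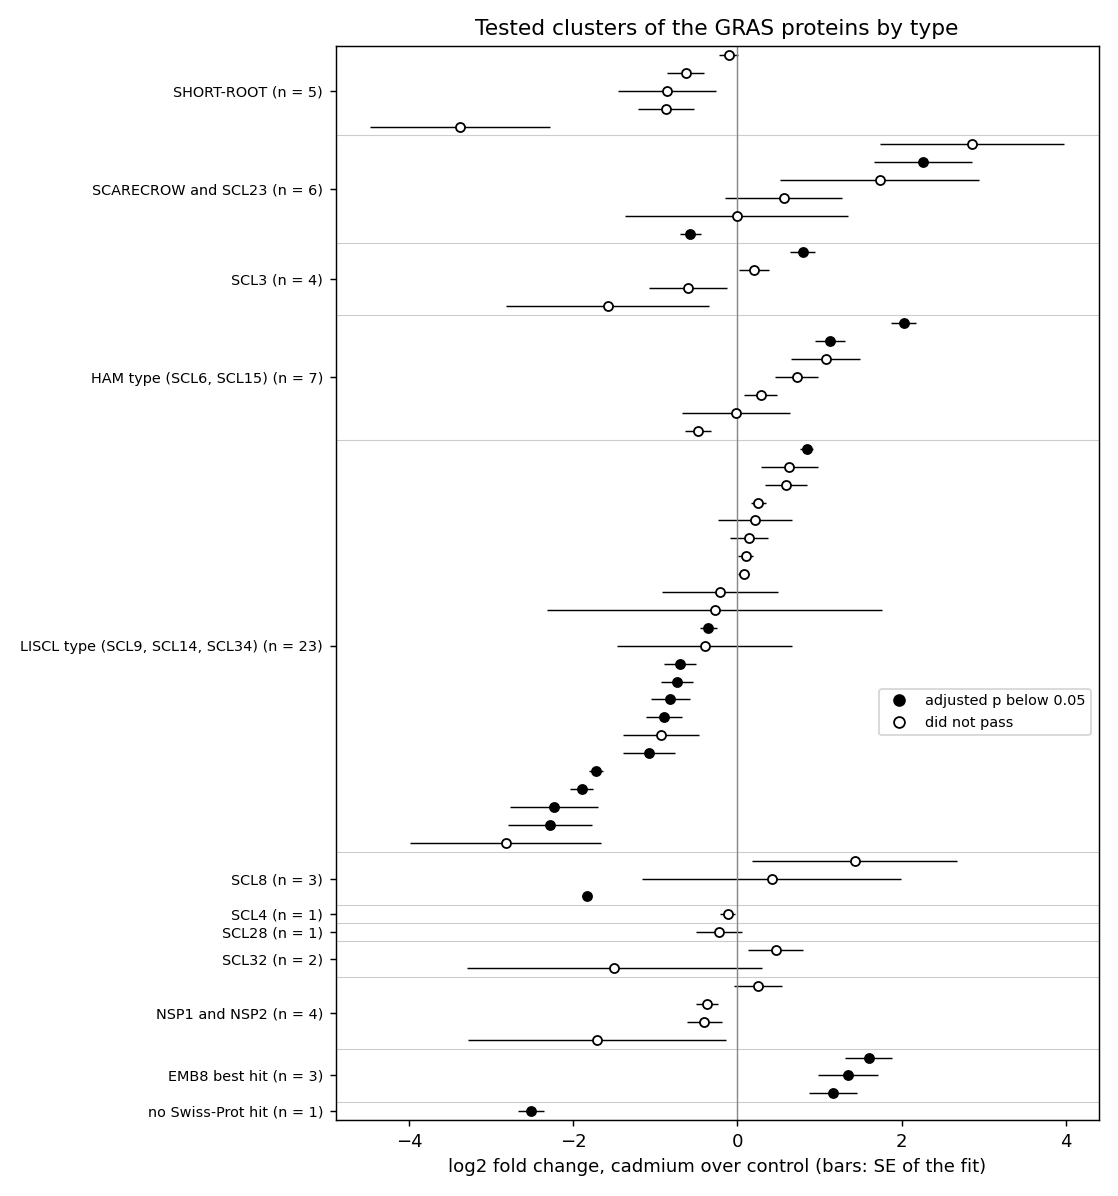
Log2 fold change, cadmium over control, of the 60 tested clusters grouped by type, with the SE of the fit as bars. Filled points passed an adjusted p of 0.05: both SCL15 points that passed lie right of 0, while 10 of the 11 filled LISCL points lie left of it.

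Reads of 1 protein could be split over its clusters, so counts were also summed over clusters that share their best NR protein. In that fit 19 of 30 tested proteins, or 63.3%, changed, 9 higher and 10 lower, where 60.3% of all summed proteins passed (30.4% higher and 29.9% lower). Both EMB8 proteins and an SCL21 protein were among the 9 higher, and another SCL21 protein was among the 10 lower. Scaled to whole libraries, 8 proteins were higher and 16 lower, beside 20.9% and 45.1% of all summed proteins. Summed by Swiss-Prot name, 11 of 18 tested names changed, where 56.7% of all names did. Of the 21 changed clusters, 18 belonged to a protein that changed in the same direction, 2 to a protein that did not pass, and 1 to a protein that passed the other way. A further 8 proteins changed although none of their clusters did. When each library was left out in turn, 16 of the 19 protein sums passed in all 6 fits, as did 9 of the 21 clusters.

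**Figure D2:**
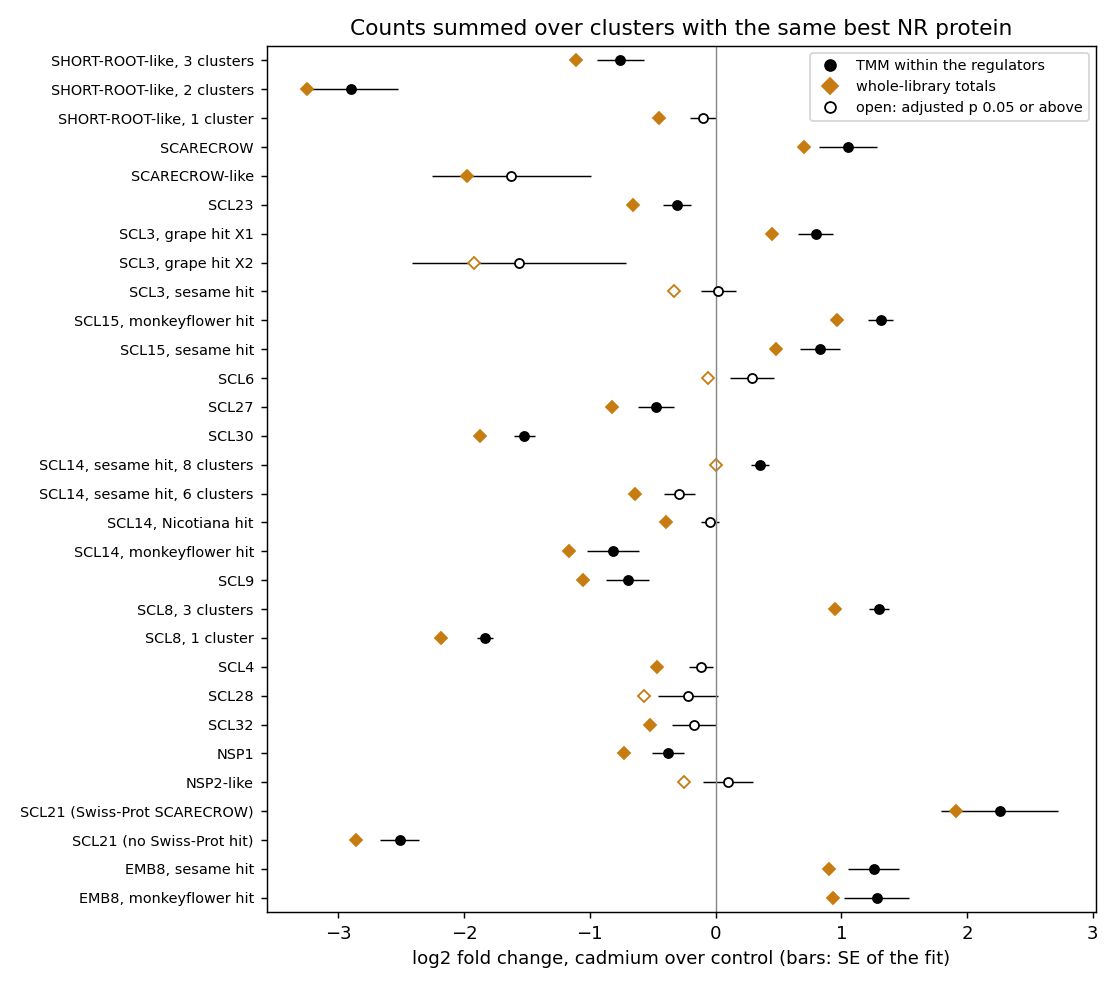
Log2 fold change, cadmium over control, of the 30 tested NR protein sums, with circles and SE bars for scaling within the regulators and diamonds for whole-library totals. SCL30, an SCL8 protein and a pair of SHORT-ROOT-like proteins lie left of 0 and SCARECROW, the SCL15 proteins and the other SCL8 protein lie right of it under both scalings, while the SCL14 protein of 8 clusters moves from 0.35 to 0.00.

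SHORT-ROOT, the mobile regulator of endodermis and stele patterning, had 6 clusters at 3 NR proteins. None of the 5 tested clusters passed, and all 5 had a log2 fold change below 0; scaled to whole libraries, 4 of the 5 passed as lower. The most abundant, Cluster-9033.118292, stood at 600, 662 and 763 CPM in the cadmium libraries and at 662, 742 and 773 CPM in the control libraries. These ranges overlap, and its log2 fold change as a protein sum was -0.10 ± 0.10 (SE; edgeR, BH-adjusted p = 0.425). With whole-library totals that protein passed, at -0.45 (edgeR, BH-adjusted p = 0.00571).

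The less abundant SHORT-ROOT-like proteins were lower under cadmium. The sum over 3 clusters was 108, 106 and 158 CPM in the cadmium libraries, against 178, 236 and 217 CPM in the control libraries. It fell by 0.76 ± 0.19 on the log2 scale (edgeR, BH-adjusted p = 0.00629). The sum over the other pair of clusters was 5.09, 5.62 and 8.65 CPM in the cadmium libraries, against 51.9, 43.7 and 50.9 CPM in the control libraries. Neither sum overlapped between the groups, and the pair had the larger change, -2.90 ± 0.37 (edgeR, BH-adjusted p = 0.000138). Both protein sums kept their calls without any 1 library and with whole-library totals. The pair was low, at 0.16, 0.2 and 0.32 FPKM in the cadmium libraries and 2.39, 1.93 and 2.32 FPKM in the control libraries. Its Cluster-9033.130437 did not pass alone (-3.38 ± 1.09, edgeR, BH-adjusted p = 0.063), and Cluster-9033.130438 was too low to test. In FPKM, all SHORT-ROOT clusters summed to 20.0 ± 3.1 under cadmium and to 32.2 ± 2.4 in control roots (n = 3 each).

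SCARECROW, which holds SHORT-ROOT in the nucleus of endodermal cells in Arabidopsis, had 13 clusters by its Swiss-Prot name, of which 4 were tested and none passed. Its reads were spread unevenly: Cluster-9033.40602 had 122, 120 and 168 CPM in the cadmium libraries and 0, 70.9 and 52.1 CPM in the control libraries, and Cluster-9033.57106 had 24.0, 143 and 196 CPM in the cadmium libraries and 82.7, 107 and 55.7 CPM in the control libraries. Summed over the 7 clusters of the NR protein SCARECROW, the counts were 279, 303 and 399 CPM in the cadmium libraries and 118, 220 and 138 CPM in the control libraries. The sums did not overlap, and SCARECROW rose by 1.05 ± 0.23 on the log2 scale (edgeR, BH-adjusted p = 0.00352). With whole-library totals the value was 0.70 (edgeR, BH-adjusted p = 0.0226), and it passed without any 1 library.

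A second protein, SCARECROW-like, had low counts of 5.94, 0.94 and 7.79 CPM in the cadmium libraries and of 11, 12.9 and 22.6 CPM in the control libraries. Its value of -1.62 ± 0.63 did not pass (edgeR, BH-adjusted p = 0.0510), and it passed with whole-library totals (-1.98, edgeR, BH-adjusted p = 0.0213). Its Cluster-12968.0 was at 0 in all 3 cadmium libraries and at 0, 7.12 and 22.6 CPM in the control libraries, so most of its 37 control counts came from control library 3.

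SCL23, the closest relative of SCARECROW and a partner of it in the Arabidopsis endodermis, had clusters that passed in opposite directions. Cluster-9033.82905 was at 157, 165 and 188 CPM in the cadmium libraries, against 260, 260 and 237 CPM in the control libraries (log2 fold change -0.57 ± 0.12, edgeR, BH-adjusted p = 0.0168). Cluster-9033.124979 was at 60.5, 28.4 and 32.9 CPM in the cadmium libraries, against 8.26, 13.2 and 3.80 CPM in the control libraries (2.26 ± 0.60, edgeR, BH-adjusted p = 0.0337). Neither overlapped between the groups. The calls held in 2 and in 1 of the 6 fits without 1 library, and the rise did not pass with whole-library totals. Their sum was 218, 194 and 221 CPM in the cadmium libraries and 268, 274 and 241 CPM in the control libraries, lower by a log2 fold change of -0.31 ± 0.11 (edgeR, BH-adjusted p = 0.0399). That call was lost in 5 of the 6 fits without 1 library, where the adjusted p reached 0.132.

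SCL3, which promotes gibberellin responses in the Arabidopsis root endodermis and opposes the DELLA proteins, had 5 clusters. Cluster-9033.136487, whose best NR hit is the grape protein, was at 151, 167 and 171 CPM in the cadmium libraries and at 99.1, 97.2 and 85.1 CPM in the control libraries. The groups did not overlap, and it rose by 0.80 ± 0.15 on the log2 scale (edgeR, BH-adjusted p = 0.0102). With whole-library totals the cluster did not pass, while the same counts in the fit of protein sums did (0.45, edgeR, BH-adjusted p = 0.0210). The SCL3 protein with a sesame hit was at 148, 141 and 127 CPM in the cadmium libraries and at 124, 151 and 135 CPM in the control libraries. It overlapped between the groups and did not pass (0.02 ± 0.14, edgeR, BH-adjusted p = 0.898).

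The HAM type, regulators that keep meristem cells undifferentiated in Arabidopsis and petunia, had 7 clusters, all tested. Of these 2 rose and 0 fell, so 28.6% passed, against 30.5% of all clusters tested. With whole-library totals 2 rose and 1 fell, where 10.9% of all clusters were higher and 22.9% lower. Both that rose were SCL15 clusters with a monkeyflower hit. Cluster-9033.142124 was at 274, 272 and 266 CPM in the cadmium libraries, against 74.6, 68.0 and 56.5 CPM in the control libraries (2.03 ± 0.15, edgeR, BH-adjusted p = 0.000339). Cluster-9033.142123 was at 183, 217 and 258 CPM in the cadmium libraries, against 106, 107 and 87.6 CPM in the control libraries (1.13 ± 0.18, edgeR, BH-adjusted p = 0.00562). Every cadmium library lay above every control library in both.

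As protein sums, the SCL15 proteins rose by 1.31 ± 0.10 (monkeyflower hit, edgeR, BH-adjusted p = 4.67e-06) and by 0.83 ± 0.16 (sesame hit, edgeR, BH-adjusted p = 0.00161) on the log2 scale. Both also passed with whole-library totals and without any 1 library. The remaining HAM proteins were SCL27 and SCL6. SCL27, named SCL6 in Swiss-Prot, was at 193, 221 and 285 CPM in the cadmium libraries and at 324, 327 and 322 CPM in the control libraries. The groups did not overlap, and it fell by 0.48 ± 0.14 as a protein sum (edgeR, BH-adjusted p = 0.0173), a call lost without cadmium library 1 or without cadmium library 2 (adjusted p up to 0.0681). SCL6 itself was at 336, 435 and 575 CPM in the cadmium libraries and at 341, 369 and 396 CPM in the control libraries, which overlap (0.29 ± 0.18, edgeR, BH-adjusted p = 0.185). The HAM type as a whole summed to 58.9 ± 5.9 FPKM under cadmium and to 41.7 ± 2.9 FPKM in control roots (n = 3 each).

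**Figure D3:**
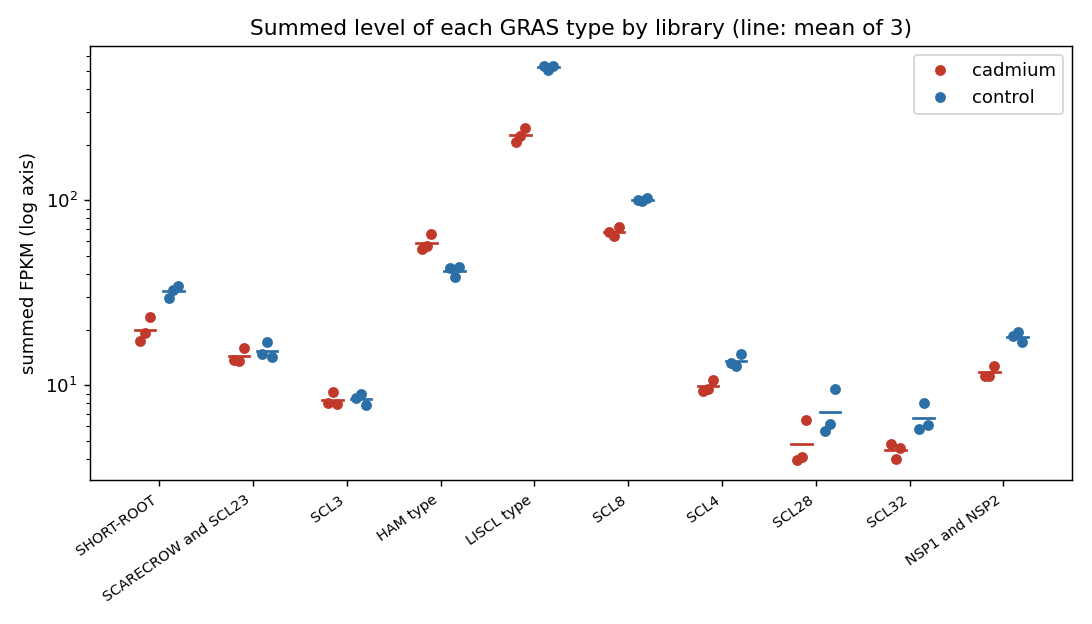
Summed FPKM of each GRAS type in every library on a log axis, with a line at the mean of 3 libraries. The LISCL type is the highest in both groups, at 207.9 to 247.5 FPKM in cadmium and 504.9 to 534.9 FPKM in control libraries. In FPKM the HAM type is the only type drawn whose cadmium libraries all lie above its control libraries. In CPM within the regulators that also held for SCL3 and for SCARECROW with SCL23.

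The LISCL type held 24 clusters and the largest part of these GRAS transcripts. Of 23 clusters tested, 1 rose and 10 fell, so 47.8% passed, against 30.5% of all clusters tested (15.8% higher and 14.6% lower). The median log2 fold change was -0.40, against -0.08 over all clusters. The 6 clusters of the protein SCL30 all fell, so 6 of these 10 calls share 1 best hit. Their Swiss-Prot names are SCL14 and SCL9, while their best NR hit is SCL30 of sesame. Together they stood at 4212, 4684 and 5140 CPM in the cadmium libraries, against 13596, 13086 and 13643 CPM in the control libraries. The sum fell by 1.52 ± 0.08 on the log2 scale (edgeR, BH-adjusted p = 5.33e-07), and by 1.87 with whole-library totals.

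Most SCL30 counts lay in Cluster-9033.75222, with 2975, 3208 and 3636 CPM in the cadmium libraries, against 10850, 10394 and 11091 CPM in the control libraries. It fell by 1.72 ± 0.08 on the log2 scale (edgeR, BH-adjusted p = 9.12e-05). Per length it was at 66.8 ± 7.9 FPKM under cadmium and at 279 ± 13.9 FPKM in control roots (n = 3 each), which is 15.2% and 33.7% of the FPKM of all 79 clusters. The other 5 SCL30 clusters had log2 fold changes between -0.36 (Cluster-9033.90549) and -2.23 (Cluster-9033.90558), so they did not fall by the same amount. Cluster-9033.90549 was at 808, 906 and 1012 CPM in the cadmium libraries and at 1224, 1166 and 1096 CPM in the control libraries, and it took 19.2% to 19.7% of the SCL30 counts under cadmium, against 8.03% to 9.0% in control roots. Of the 6 clusters, Cluster-9033.75222 and Cluster-9033.112394 (-1.90 ± 0.14) passed without any 1 library, and the other 4 passed in 1 of those 6 fits each.

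**Figure D4:**
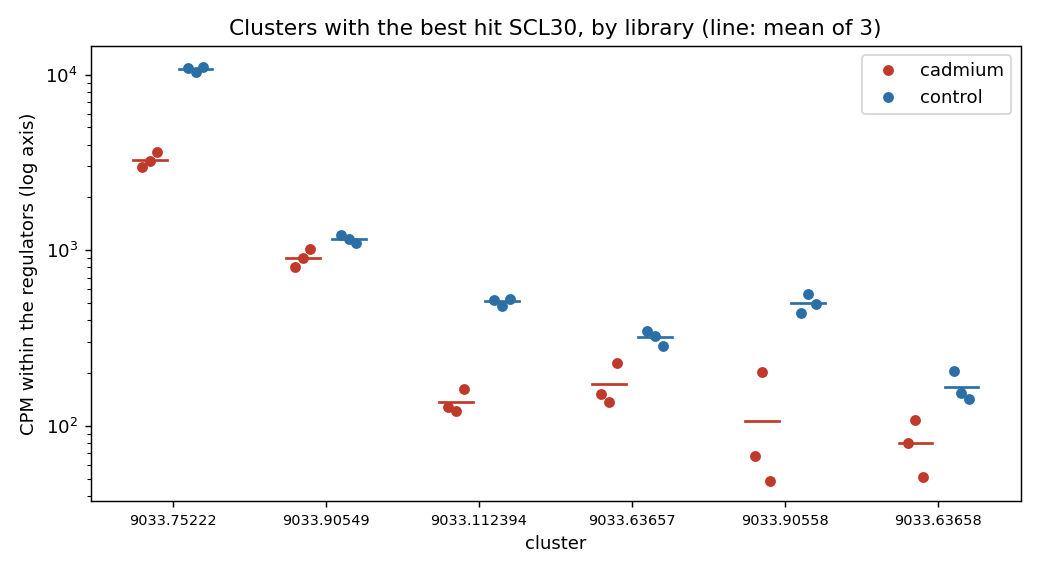
CPM of the 6 clusters with the best NR hit SCL30 in every library, on a log axis, with a line at the mean of 3 libraries. The cadmium libraries lie below the control libraries in each of the 6 clusters, at 2975 to 3636 CPM against 10394 to 11091 CPM in Cluster-9033.75222.

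SCL14 binds TGA factors and activates detoxification genes in Arabidopsis, and the proteins of that name did not change alike here. The sesame SCL14 protein with 8 clusters was at 3891, 3737 and 4227 CPM in the cadmium libraries, against 3053, 3110 and 3131 CPM in the control libraries. The sums did not overlap, and the protein rose by 0.35 ± 0.07 on the log2 scale (edgeR, BH-adjusted p = 0.00166). This rests on the scaling within the regulators: with whole-library totals the value was 0.00 (edgeR, BH-adjusted p = 0.970). In FPKM the protein was at 85.9 ± 6.0 under cadmium and at 89.4 ± 1.4 in control roots. Of its clusters, Cluster-9033.57624 passed, at 1162, 1057 and 1168 CPM in the cadmium libraries and 631, 670 and 588 CPM in the control libraries (0.84 ± 0.08, edgeR, BH-adjusted p = 0.000925). It passed under every scaling and without any 1 library. Cluster-9033.57627 of the same protein was lower, at 0, 26.7 and 10.2 CPM in the cadmium libraries and 68.4, 120 and 76.1 CPM in the control libraries. Its groups did not overlap, but it did not pass (-2.82 ± 1.165, edgeR, BH-adjusted p = 0.1215), while its deposited q-value was below 0.05. When all clusters named SCL14 in Swiss-Prot were summed, the value was -0.84. That sum holds the SCL30 clusters except Cluster-9033.112394, which is named SCL9 in Swiss-Prot.

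The other LISCL proteins were lower or did not pass. SCL14 with a monkeyflower hit, which is Cluster-9033.63656, was at 46.9, 42.6 and 60.1 CPM in the cadmium libraries, against 83.5, 91.5 and 90.7 CPM in the control libraries (protein sum -0.81 ± 0.20, edgeR, BH-adjusted p = 0.00695). SCL9, which is Cluster-13051.1, was at 55.8, 63.0 and 63.8 CPM in the cadmium libraries, against 93.0, 96.6 and 108 CPM in the control libraries (protein sum -0.70 ± 0.17, edgeR, BH-adjusted p = 0.00629). Neither overlapped between the groups. Both sums passed without any 1 library, while the same counts as single clusters passed in 1 and in 0 of those 6 fits. The SCL14 protein with a Nicotiana hit did not pass as a sum (-0.04 ± 0.07, edgeR, BH-adjusted p = 0.625), and was called lower with whole-library totals (-0.39, edgeR, BH-adjusted p = 0.000913). Its minor Cluster-9033.98484 fell, with 6.79, 22 and 19.4 CPM in the cadmium libraries and 80.1, 96.6 and 59.6 CPM in the control libraries (-2.28 ± 0.51, edgeR, BH-adjusted p = 0.0183). The sesame SCL14 protein with 6 clusters did not pass either (-0.29 ± 0.12, edgeR, BH-adjusted p = 0.0695), and was called lower with whole-library totals (-0.64, edgeR, BH-adjusted p = 0.00154). Its Cluster-9033.86170 passed in both scalings (-0.73 ± 0.19, edgeR, BH-adjusted p = 0.0327). These minor clusters passed in 3 and in 1 of the 6 fits without 1 library.

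SCL8 had a pair of NR proteins that moved in opposite directions. The protein with 1 cluster, Cluster-9033.77627, was at 685, 658 and 671 CPM in the cadmium libraries and at 2335, 2464 and 2392 CPM in the control libraries. It had the smallest adjusted p of the 60 clusters (log2 fold change -1.83 ± 0.06, edgeR, BH-adjusted p = 1.80e-05). Per length it was at 16.4 ± 0.2 FPKM under cadmium and at 74.2 ± 1.0 FPKM in control roots (n = 3 each). The protein with 3 clusters summed to 2184, 1980 and 2286 CPM in the cadmium libraries, against 883, 822 and 922 CPM in the control libraries. It rose by 1.30 ± 0.08 on the log2 scale (edgeR, BH-adjusted p = 1.41e-06), and by 0.95 with whole-library totals.

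None of the 3 clusters behind that rise passed alone, and each library filled them differently. Cluster-9033.57352 held 66.4%, 76.9% and 63.1% of the protein's counts in the cadmium libraries and 0.42%, 100.0% and 88.5% in the control libraries. Cluster-9033.101823 held 33.6%, 23.1% and 5.66% in the cadmium libraries and 99.6%, 0% and 11.5% in the control libraries. Cluster-9033.57356, at 714 CPM in cadmium library 3 and at or near 0 in the other 5 libraries, was not tested. The sum over the 3 varied little within a group. When both SCL8 proteins were summed under their shared Swiss-Prot name, the sum was 2821 ± 165 CPM under cadmium and 3272 ± 49 CPM in control roots (n = 3 each), a log2 fold change of -0.20 ± 0.06 (edgeR, BH-adjusted p = 0.0192).

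**Figure D5:**
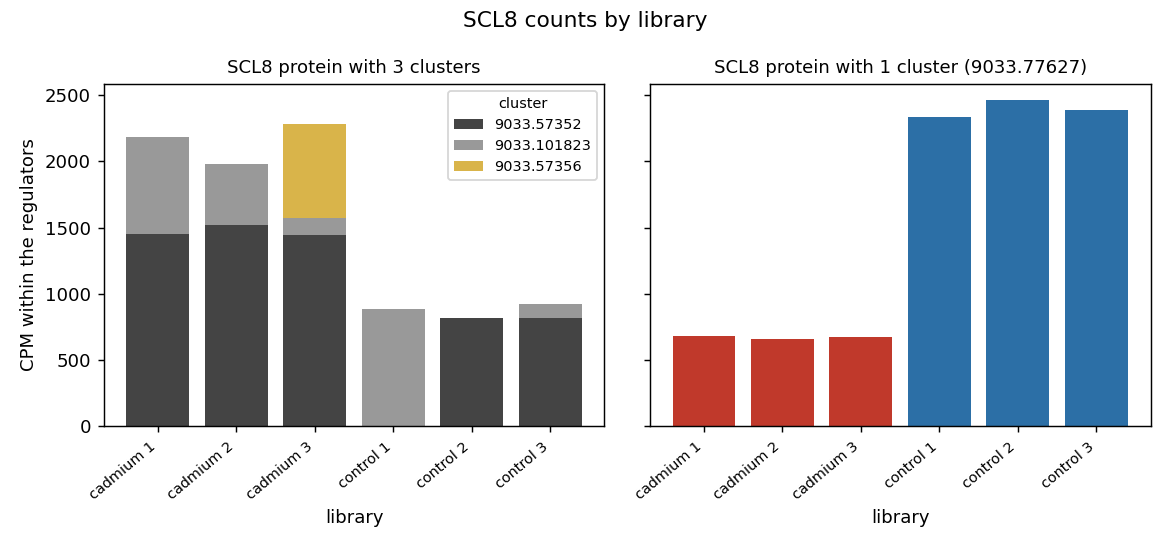
CPM of the SCL8 clusters by library, stacked by cluster for the protein with 3 clusters (left panel) and for Cluster-9033.77627 (right panel). On the left the stacks reach 1980 to 2286 CPM in the cadmium libraries and 822 to 922 CPM in the control libraries although the clusters that fill them differ. On the right the cadmium libraries stand at 658 to 685 CPM and the control libraries at 2335 to 2464 CPM.

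The remaining SCL proteins of known branches gave few calls. SCL4 (Cluster-9033.156479) was at 428, 422 and 472 CPM in the cadmium libraries and at 463, 458 and 515 CPM in the control libraries, which overlap (-0.12 ± 0.09, edgeR, BH-adjusted p = 0.397). SCL28, a cell cycle regulator linked to three-repeat MYB factors in Arabidopsis, was at 171, 173 and 273 CPM in the cadmium libraries and at 189, 213 and 319 CPM in the control libraries (Cluster-9033.94615, -0.22 ± 0.28, edgeR, BH-adjusted p = 0.605). SCL32 reads were split over Cluster-9033.42719 (0.46 ± 0.34, edgeR, BH-adjusted p = 0.354) and a second cluster, and the protein sum was -0.17 ± 0.18 (edgeR, BH-adjusted p = 0.428). With whole-library totals the sums of SCL4 (-0.47) and SCL32 (-0.52) passed as lower, while SCL28 (-0.57) did not. SCL18, the name of the Arabidopsis regulator of axillary meristems, had a pair of clusters too low to test, at 0.77 ± 0.35 FPKM in sum under cadmium and 0.63 ± 0.39 FPKM in control roots (n = 3 each), with Cluster-11496.0 at up to 4.33 CPM in the cadmium libraries and up to 4.39 CPM in the control libraries.

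NSP1 and NSP2 are needed for nodulation in legumes and for strigolactone synthesis in Medicago and rice. NSP1 summed to 310, 304 and 346 CPM in the cadmium libraries, against 390, 491 and 371 CPM in the control libraries. The groups did not overlap, and the sum fell by 0.38 ± 0.13 on the log2 scale (edgeR, BH-adjusted p = 0.0265). The call was lost without cadmium library 1, without cadmium library 2 and without control library 2 (adjusted p up to 0.0908), and its leading Cluster-9033.41107 did not pass alone (-0.37 ± 0.14, edgeR, BH-adjusted p = 0.0916) except with whole-library totals, DESeq2 and limma. The NSP2-like protein was at 86.8, 85.5 and 93.9 CPM in the cadmium libraries and at 97.0, 64.7 and 86.4 CPM in the control libraries, which overlap (0.10 ± 0.20, edgeR, BH-adjusted p = 0.683).

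Some clusters carried names that do not belong to this set of GRAS proteins. Cluster-9033.81193 had no Swiss-Prot hit and SCL21 as its best NR hit, so it entered through its missing Swiss-Prot name. It was at 51.2, 53.1 and 52.8 CPM in the cadmium libraries and at 262, 283 and 353 CPM in the control libraries. The groups lay far apart, and it fell by 2.51 ± 0.16 on the log2 scale (edgeR, BH-adjusted p = 0.000212), under every setting tried. A pair of clusters named SCARECROW in Swiss-Prot also had an SCL21 protein as best NR hit, and their sum was 30.9, 62.4 and 34.5 CPM in the cadmium libraries against 11.2, 4.64 and 10.6 CPM in the control libraries (2.26 ± 0.47, edgeR, BH-adjusted p = 0.00239).

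The 3 clusters named EMB8, an embryogenesis-associated protein that is no GRAS protein by name, all rose. Cluster-9033.9320 was at 83.7, 64.4 and 58.3 CPM in the cadmium libraries and at 22.2, 22.7 and 23.3 CPM in the control libraries (1.60 ± 0.29, edgeR, BH-adjusted p = 0.00886). Cluster-9033.13010 (1.35 ± 0.36, edgeR, BH-adjusted p = 0.0359) and Cluster-9033.9321 (1.16 ± 0.29, edgeR, BH-adjusted p = 0.0289) rose as well. Of the 3, Cluster-9033.9320 kept its call without any 1 library, and the others kept it in 1 of the 6 fits each and lost it with whole-library totals. As protein sums both EMB8 proteins passed in all 6. The sum with the monkeyflower hit also held Cluster-9033.15171, named SCARECROW in Swiss-Prot, with 0% to 30.95% of its counts by library.

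Known partners of these proteins were read from lists of names. Of 38 tested BIRD and related INDETERMINATE DOMAIN zinc fingers, which bind SHORT-ROOT and SCARECROW in Arabidopsis, 7 rose and 3 fell, with a median log2 fold change of 0.03. With whole-library totals 5 were called higher and 6 lower, with a median of -0.33. The cluster named MAGPIE, Cluster-9033.56089, rose by 1.14 ± 0.12, at 1655 ± 162 CPM under cadmium and 752 ± 93 CPM in control roots (n = 3 each). The cluster named indeterminate-domain 11, Cluster-9033.88628, fell by 1.93 ± 0.10, at 145 ± 11 CPM under cadmium and 552 ± 10 CPM in control roots (n = 3 each).

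Of 12 tested HD-Zip III clusters, targets of the microRNAs that SHORT-ROOT and SCARECROW activate in the Arabidopsis root, 1 rose and 4 fell (median 0.02), and 0 rose and 4 fell with whole-library totals. REVOLUTA Cluster-9033.118278 was among those that fell (-0.90 ± 0.11), at 639 ± 18 CPM under cadmium and 1195 ± 148 CPM in control roots (n = 3 each). REVOLUTA Cluster-9033.51895 fell too, at 0 in all 3 cadmium libraries and at 37.05, 73.8 and 70.0 CPM in the control libraries. The cluster that rose, REVOLUTA Cluster-9033.157432 (1.57 ± 0.38), has the same best NR protein as Cluster-9033.51895. Its call held in 2 of the 6 fits without 1 library. Of 7 tested endodermis and stem cell niche clusters, PLT2 (Cluster-9033.154776, 2.25 ± 0.46) rose and the retinoblastoma-related protein fell (Cluster-9033.16913, -1.73), and that second call held in 2 of the 6 fits without 1 library. Of 30 tested TGA clusters 2 rose and 3 fell (median -0.18), and 2 rose and 7 fell with whole-library totals (median -0.53). The cluster named TGA-2.1, Cluster-9033.109468, rose by 0.91 ± 0.09, at 1375 ± 98 CPM under cadmium and 733 ± 48 CPM in control roots (n = 3 each). Clusters named TGA1 passed in both directions. Cluster-9033.56379 rose (1.68 ± 0.39), a call that held in 3 of the 6 fits without 1 library. Cluster-9033.56384 (-1.40 ± 0.22) and Cluster-9033.112973 (-0.595 ± 0.11) fell, and both calls held in all 6. Of 9 tested three-repeat MYB clusters 0 rose and 1 fell (MYB3R-1, Cluster-9033.20558, -1.20), and 2 fell with whole-library totals. Set against the 30.5% of all clusters that passed, these lists had 26.3% (BIRD), 41.7% (HD-Zip III), 28.6% (niche), 16.7% (TGA) and 11.1% (MYB), on few clusters each.

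In the authors' deposited table, 77 of the 79 clusters followed here had a q-value. Of those 77, 19 were below 0.05, 9 higher and 10 lower, where 19.1% of all clusters were. Of the 19, 14 also passed here in the same direction and 5 passed in the authors' deposited table alone. A further 7 passed here alone.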

How the data were processed

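RNA sequencing of roots gave 3 cadmium and 3 control libraries. Bowtie2 2.0.6 and TopHat2 2.0.12 are named in the submitters' processing notes. What each did, how clusters were made and how reads were counted is not stated there or in the labels. Expected counts per cluster were deposited by the authors as read counts, per the file headers, many with decimals. FPKM, per length and whole library, was computed by the authors (file headers). The log2 ratio of cadmium over control and its q-value were also made by the authors, with an unstated test. The score of each best Swiss-Prot hit was deposited by the authors. Counting could divide the reads of near-identical clusters among them, which makes values of single clusters uncertain.

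Expected counts were rounded and fitted over all 8147 clusters with edgeR 4.0.16 in R 4.3.3. The fit used filterByExpr (minimum count 10, minimum total 15), TMM within the regulators, a quasi-likelihood test on a design of group alone, and a threshold of 0.05 after Benjamini-Hochberg adjustment. SE is the log2 fold change over the square root of F. Whole-library totals came from counts above 300 and FPKM above 10. Sums over the best NR or Swiss-Prot protein were refitted over the whole table, and NR sums as a result of their own were added after seeing the data. The common biological coefficient of variation was 0.573. Alternatives were RLE size factors, whole-library totals, no filter, DESeq2 1.42.0, limma 3.58.1 on log2(FPKM + 1) and log2(FPKM + 0.1), the replicate number as a block, and each library left out. A run of the same code on simulated counts was also made. Their spread was not shown to match that of these libraries, so no error rate for the results follows from that run. Nothing beyond the labels says that libraries came from separate plants. The p-values therefore set the group difference against the spread between these libraries, which may be partly technical.

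The members and lists were chosen with earlier results of these data known. Named clusters were every member that passed, the cluster of highest FPKM in each type, members at 0 in 1 group whose counts in the other averaged 10 or more, and up to 2 higher and 2 lower clusters per partner list. Other clusters and protein sums named with values were chosen after their values were seen.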

Additional observations from a re-analysis of the deposited data

How the results depend on the processing

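The number of changed clusters, 21 of the 60 tested, fell to 8 (3 higher, 5 lower) with the replicate block and lay between 10 and 17 of 63 to 65 tested when a library was left out (5 to 7 higher, 4 to 11 lower), or 15.9% to 26.6%, against 21.5% to 22.7% of all clusters. The count was 14 without a filter (6 higher, 8 lower), 31 with DESeq2, and 29 and 30 with limma on log2(FPKM + 0.1) and log2(FPKM + 1), with 24 lower in both and 5 and 6 higher. Scaling to whole libraries gave 4 higher and 22 lower. All clusters changed numbered 1476, and 886 with the replicate block, or 18.3%, against 13.3% of the GRAS clusters. Protein sums by Swiss-Prot name, 11 changed, lay between 6 and 11 without 1 library, and those by NR protein, 19 changed, between 16 and 19. Same-numbered libraries correlated by 0.0047, 0.029 and -0.0038 after the group means were removed, and not every library correlated best with its own number. Whether same-numbered libraries share more than a number cannot be told from these values.

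Directions reversed in 17 cases. Under Swiss-Prot sums, SCL14 Cluster-9033.57624 gave -0.84, TGA1 Cluster-9033.56379 -0.58 and REVOLUTA Cluster-9033.157432 -0.77 (-0.012 by NR protein). SCL23 Cluster-9033.124979 gave -0.31 (NR) and -0.30 (Swiss-Prot), and SCL32 Cluster-9033.42719 gave -0.17 in both. Leaving out 1 library, SCL28 lay between -0.47 and 0.040 as a cluster and between -0.46 and 0.029 as a sum, above 0 without control library 3. Among NR sums that did not pass, whole-library totals gave -0.33 for sesame SCL3, -0.061 for SCL6 and -0.25 for NSP2-like. Without 1 library, sesame SCL3 lay between -0.035 and 0.093 (below 0 without cadmium library 1 or control library 1), NSP2-like between -0.058 and 0.24, and SCL32 between -0.30 and 0.035, the reversed values of these last being those without control library 2. The cause was not tested. Of the 21 changed clusters 7 passed under every setting. Clusters that passed had a median of 6.97 FPKM and those that did not 2.78 FPKM, with median SE of 0.19 and 0.42.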
